A study of Mus musculus with 6 samples.

Results

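The 8 genes of cholesterol synthesis described here, compared across 3 mouse mammary cell lines labelled as epithelial, were Hmgcs1, Idi1, Fdps, Fdft1, Sqle, Lss, Cyp51 and Srebf2. They were chosen by name, and 7 of the 8 were found among the 11417 genes of the deposited table. Hmgcs1 was not listed there and is not analysed here. The 7 genes comprise 6 enzymes and 1 transcription factor, and no lipoprotein receptor gene is among them. The lines BC44, HC11 and C57MG were untreated, grown on plastic and sequenced as poly(A) RNA, with 2 libraries per line and 6 in all. HC11 is a line widely used to study mammary differentiation, and C57MG one used to study transformation by Wnt proteins. All media held 10% serum. BC44 and HC11 grew in RPMI1640 with insulin at 5 µg/ml, to which EGF (epidermal growth factor) was added at 10 ng/ml for HC11 alone. C57MG grew in DMEM, with insulin at 10 µg/ml. Line and medium therefore cannot be told apart, and each line stands for itself. Nothing in the labels says whether the 2 libraries of a line came from separate cultures, so the p-values measure the spread between these libraries, which may be technical.

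Cholesterol is built from acetyl-CoA through the mevalonate pathway, which makes the isoprenoid farnesyl diphosphate, and then through squalene and lanosterol. When sterols in the membrane of the endoplasmic reticulum are low, the protein SCAP carries the factor SREBP-2, the product of Srebf2, to the Golgi, where proteases release its active part. That part raises transcription of most enzymes of the pathway together, of Srebf2 itself and of Insig1, whose product holds SCAP back when sterols are plentiful. In the mammary gland, lipid synthesis rises at lactation, when secretory cells supply the lipid of milk.

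The cholesterol synthesis genes were higher in C57MG than in the other lines, except that Lss did not pass against HC11. The differences were largest for Fdps, Fdft1 and Sqle, the enzymes that make farnesyl diphosphate, squalene and squalene epoxide. Most of 10 epithelial markers were at or near 0 in C57MG, as given with the library measures at the end. Levels are given as RPKM, that is, reads scaled to gene length and to library depth. Summed over the 6 enzymes, the level was 188 and 223 RPKM in BC44 replicates 1 and 2 and 199 and 186 RPKM in HC11. In C57MG the sum was 632 and 442 RPKM. The means were 205.5 ± 25.0, 192 ± 9.24 and 537 ± 135 RPKM (SD, n = 2 libraries each). Both C57MG libraries lay above all 4 others for 6 of the 7 genes, Lss being the exception. That pattern held for 32.4% of the 10759 genes tested. Differences were tested as log2(RPKM + 1) with limma over all tested genes, with Benjamini-Hochberg adjustment and a threshold of 0.05. Against BC44, 7 of 7 genes passed, all higher in C57MG. Of all tested genes 71.7% passed there, 34.1% as higher in C57MG and 37.5% as higher in BC44. Against HC11, 6 of 7 passed, all higher in C57MG. Of all tested genes 70.5% passed there, 33.2% as higher in C57MG and 37.4% as higher in HC11. The libraries of C57MG and BC44 did not overlap for 7 of 7 genes (87.9% of all tested genes), and those of C57MG and HC11 for 6 of 7 (86.2%). Both comparisons use the same C57MG libraries. The median difference of the 7 genes was -0.89 for BC44 minus C57MG and -0.999 for HC11 minus C57MG, and over all tested genes it was 0.04 and 0.03. In bulk RNA, a change in the level per cell and a change in the share of cells that express a gene cannot be told apart.

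**Figure D1:**
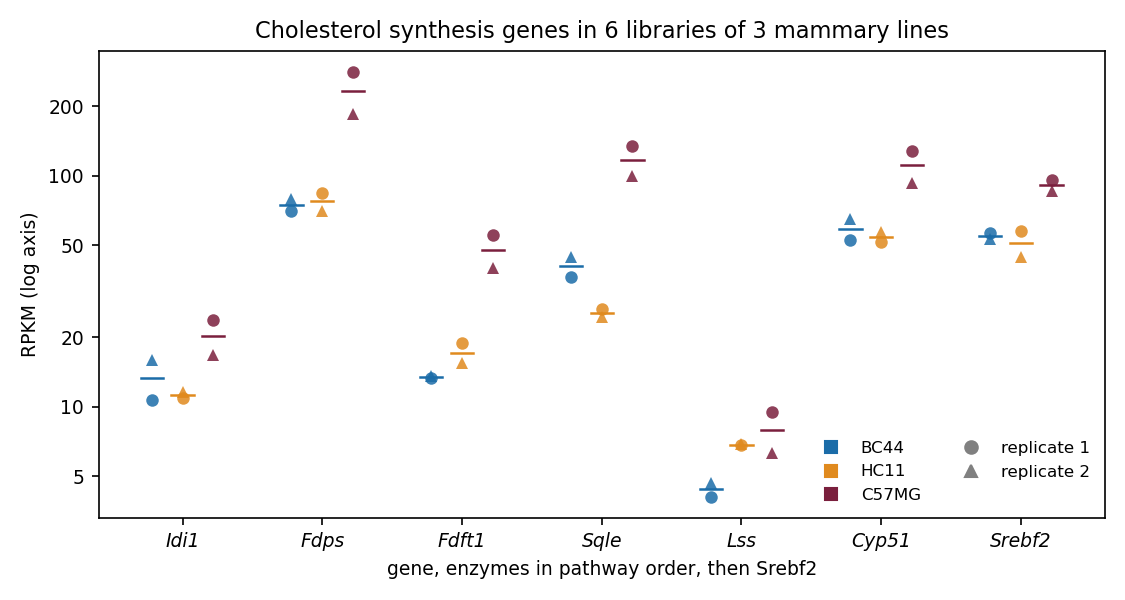
RPKM of the 6 enzyme genes in pathway order and of Srebf2 (log axis) in each of 6 libraries; colours mark the line, circles and triangles replicates 1 and 2, and horizontal bars the mean of 2 libraries. The C57MG points lie above the others for all genes except Lss, whose C57MG replicate 2 (6.34 RPKM) is below both HC11 libraries.

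The start regions of 4 of the 7 genes were matched by symbol to RefSeq promoter windows (build GRCm38.p6, 250 bases before the transcription start to 50 after it). No window was found by symbol for Fdps, Fdft1 or Sqle, whose differences were largest. The 4 windows are shown because these genes, known SREBP-2 targets, were all higher in C57MG than in BC44. Capitals mark CCAAT boxes on either strand (read as ATTGG on the other strand), the motif bound by NF-Y, a factor that acts with SREBP. In Srebf2 capitals also mark the stretch ATCACCCCAT, which is 1 letter away from the sterol regulatory element, the SREBP binding motif. The windows are chr13:8885356-8885655 (plus strand) for Idi1, chr10:76531355-76531654 (plus strand) for Lss, chr5:4104648-4104947 (minus strand) for Cyp51 and chr15:82147019-82147318 (plus strand) for Srebf2.
Idi1: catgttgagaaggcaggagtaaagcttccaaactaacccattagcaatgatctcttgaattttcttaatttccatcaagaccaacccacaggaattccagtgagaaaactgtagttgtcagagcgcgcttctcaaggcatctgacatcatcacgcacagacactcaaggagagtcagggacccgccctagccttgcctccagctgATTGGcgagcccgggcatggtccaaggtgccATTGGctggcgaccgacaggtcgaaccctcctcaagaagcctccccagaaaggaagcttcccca
Lss: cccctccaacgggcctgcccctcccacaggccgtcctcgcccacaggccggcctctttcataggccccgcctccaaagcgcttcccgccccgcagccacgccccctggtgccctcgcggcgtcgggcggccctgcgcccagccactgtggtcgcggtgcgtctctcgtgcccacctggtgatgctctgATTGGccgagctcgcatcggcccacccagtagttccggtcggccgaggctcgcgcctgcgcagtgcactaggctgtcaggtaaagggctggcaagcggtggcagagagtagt
Cyp51: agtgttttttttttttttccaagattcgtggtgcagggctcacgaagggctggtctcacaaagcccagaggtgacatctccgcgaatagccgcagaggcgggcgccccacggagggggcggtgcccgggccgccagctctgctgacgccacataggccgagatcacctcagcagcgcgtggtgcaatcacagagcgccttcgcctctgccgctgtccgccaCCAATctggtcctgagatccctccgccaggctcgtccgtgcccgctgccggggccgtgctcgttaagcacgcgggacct
Srebf2: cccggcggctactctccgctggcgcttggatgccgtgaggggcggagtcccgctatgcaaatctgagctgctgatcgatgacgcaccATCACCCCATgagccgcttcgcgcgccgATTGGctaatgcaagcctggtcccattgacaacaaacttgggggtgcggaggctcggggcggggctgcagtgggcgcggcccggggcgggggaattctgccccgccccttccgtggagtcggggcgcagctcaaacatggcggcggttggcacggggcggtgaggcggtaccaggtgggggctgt
A CCAAT box was present in all 4 windows, and in 11 of the 12 other cholesterol enzyme genes with a window. It was absent from Acat2, which was higher in C57MG than in both other lines. Pmvk, Mvd and Lbr, which passed in neither comparison with C57MG, held the CCAAT box. Over the 9073 genes of the table with a window it was present in 43.4%. The Sp1 box GGGCGG was also in all 4, against 70.6% of those genes, and the E-box CACGTG in 0 of 4, against 12%. No window of the 4 held the exact sterol regulatory element or its looser form TCACNCCAC on either strand, which 0.0551% and 1.4% of genes held. A stretch at most 1 letter from the exact element, a search added after the windows were seen, was in the Srebf2 window and in 2.23% of genes. These are matches of letters in a short window and not measured binding.

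Fdps and Idi1 act at the isoprenoid stage. Fdps, the synthase of farnesyl diphosphate (chromosome 3, 89093588 to 89101959, minus strand, GENCODE M21 on GRCm38), was the most abundant of the 7 genes in every library. It was at 70.3 and 79.2 RPKM in BC44 replicates 1 and 2, 84.3 and 70.6 in HC11, with 281 and 185 in C57MG. The C57MG libraries stood above all others, and BC44 and HC11 overlapped. The mean in C57MG was 3.12 times that in BC44 and 3.01 times that in HC11. On the log2(RPKM + 1) scale C57MG was higher by 1.60 and 1.55 (SE 0.19 each, limma adjusted p = 0.000157 and 0.000205). Exons of Fdps share 1124 bases with those of Gm43738, a protein-coding gene on the same strand that the deposited table does not list. The part of Gm43738 reads in the Fdps values was not tested. Idi1, the isomerase that makes the building block joined by Fdps (chromosome 13, 8885501 to 8892451, plus strand), was at 10.7 and 15.9 RPKM in BC44, 10.9 and 11.5 in HC11, with 23.8 and 16.8 in C57MG. Its lower C57MG library was only slightly above the higher BC44 library. C57MG was higher by 0.58 than BC44 and by 0.78 than HC11 (SE 0.21 each, limma adjusted p = 0.0353 and 0.0107). Without C57MG replicate 1 neither Idi1 difference passed (0.34, adjusted p = 0.2241, and 0.54, adjusted p = 0.0757, limma), and the first also failed without BC44 replicate 1 (0.32, adjusted p = 0.227, limma) or without either HC11 library (0.0669 and 0.0666), and in a fit to the 4 libraries compared (0.0651). The difference from HC11 had an adjusted p of 0.0638 (limma) without HC11 replicate 1.

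At the first committed steps toward sterols, Fdft1 had the largest log2 difference of the 7 genes against BC44, and Sqle against HC11. Fdft1, squalene synthase (chromosome 14, 63145150 to 63179578, minus strand), was at 13.3 and 13.6 RPKM in BC44, 18.8 and 15.5 in HC11, with 55.2 and 39.9 in C57MG. The groups of C57MG and the other lines were far apart, with a C57MG mean 3.54 times that of BC44 and 2.77 times that of HC11. The log2 differences were 1.73 and 1.41 (SE 0.16 each, limma adjusted p = 3.904e-05 and 0.000138). Exons of Fdft1 share 774 bases with those of Ctsb, the gene of the protease cathepsin B on the opposite strand. Ctsb was at 37.9 and 37.1 RPKM in BC44, 67.9 and 70.2 in HC11, with 163 and 179 in C57MG. It was thus also highest in C57MG. Whether the counting used the strand is not given in the sources used here, and the part of Ctsb reads in the Fdft1 values was not tested.

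Sqle, squalene epoxidase, a rate-limiting oxygenase of the sterol branch (chromosome 15, 59315077 to 59331192, plus strand), differed among all 3 lines. It was at 36.5 and 44.6 RPKM in BC44, 26.4 and 24.5 in HC11, with 134 and 99.8 in C57MG, and no pair of lines overlapped. The C57MG mean was 2.89 times the BC44 mean and 4.60 times the HC11 mean. C57MG was higher by 1.498 and 2.14 on the log2 scale (SE 0.15 each, limma adjusted p = 7.059e-05 and 1.175e-05). In C57MG Sqle overlapped Cyp51 and ranked just below Fdps, whereas in BC44 and HC11 it ranked below Fdps, Cyp51 and Srebf2 with no overlap.

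Lss and Cyp51 form and trim the sterol ring. Lss, lanosterol synthase, which closes the rings (chromosome 10, 76531588 to 76557138, plus strand), was the least abundant of the 7 genes in each line. It was at 4.09 and 4.71 RPKM in BC44, 6.83 and 6.91 in HC11, with 9.48 and 6.34 in C57MG. BC44 was below both other lines, while HC11 lay between the C57MG libraries. C57MG was higher than BC44 by 0.70 (SE 0.17, limma adjusted p = 0.00679), a difference with an adjusted p of 0.0545 (limma) without BC44 replicate 1 and a size of 0.45 (adjusted p = 0.042, limma) without C57MG replicate 1. HC11 minus C57MG was -0.16 (95% interval -0.55 to 0.24, limma adjusted p = 0.432), and without C57MG replicate 1 it was 0.10. Cyp51, lanosterol demethylase (chromosome 5, 4081145 to 4104746, minus strand), was at 52.9 and 65.1 RPKM in BC44, 51.7 and 56.9 in HC11, with 128 and 93.4 in C57MG. BC44 and HC11 overlapped below C57MG, whose mean was 1.88 and 2.04 times theirs. The log2 differences were 0.89 and 1.00 (SE 0.16 each, limma adjusted p = 0.00166 and 0.000939). Cyp51 shares 166 exonic bases with Akap9 on the opposite strand, a gene that was lowest in C57MG (3.86 and 3.84 RPKM, against 14.9 to 20.3 in the other libraries). Lss shares 381 exonic bases with 4930483K19Rik and Idi1 323 with Gm48574. Both of these genes lie on the opposite strand and are not in the deposited table.

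Srebf2 was also higher in C57MG, by less than Fdps, Fdft1 and Sqle. It lies on chromosome 15 (82147181 to 82205379, plus strand) and was at 56.5 and 53.0 RPKM in BC44, 57.9 and 44.7 in HC11, with 95.8 and 86.3 in C57MG. Again BC44 and HC11 overlapped and C57MG was apart, with 1.66 and 1.77 times their means. C57MG was higher by 0.72 and 0.82 on the log2 scale (SE 0.13 each, limma adjusted p = 0.00135 and 0.000703). The level of this transcript does not measure the released, active factor.

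Genes near some of the 7 differed in the same direction. The 17 other tested genes within 2 Mb of Sqle had a median of -1.15 for BC44 minus C57MG and -1.01 for HC11 minus C57MG, and the 16 around Fdft1 had -1.005 and -0.47. Around Srebf2 (39 genes) the medians were -0.38 and -0.27, around Fdps (83 genes) -0.37 and -0.28, and around Cyp51 (18 genes) 0.89 and 0.62, opposite to Cyp51 itself. Around Lss (39 genes) they were -0.31 and -0.15, and around Idi1 (5 genes) 0.23 and 0.0115. Over whole chromosomes, in the same order, the medians were -0.61 and -0.59 on chromosome 15 (441 tested genes, Sqle and Srebf2). They were -0.56 and -0.28 on chromosome 14 (Fdft1), 0.55 and 0.51 on chromosome 5 (Cyp51) and -0.22 and -0.24 on chromosome 3 (Fdps). On chromosome 10 (Lss) they were 0.12 and -0.05, and on chromosome 13 (Idi1) 0.0 and 0.02. Over all tested genes they were 0.04 and 0.03. The part of chromosome or chromosomal region in these differences was not tested.

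Between BC44 and HC11, 2 of the 7 genes passed, where 47.7% of all tested genes did (24.7% higher in BC44 and 23.0% higher in HC11), and they went in opposite directions. The libraries did not overlap for 3 of 7 (Fdft1, Sqle and Lss), against 73.0% of all tested genes. Sqle was higher in BC44 by 0.65 (SE 0.15, limma adjusted p = 0.0109) and Lss lower by 0.55 (SE 0.17, limma adjusted p = 0.0322). Neither call was firm with 1 library fewer: Lss lost it without any 1 of the 4 libraries, with adjusted p (limma) from 0.08 to 0.165, and Sqle without BC44 replicate 2 (0.0825) or HC11 replicate 2 (0.07048). The other 5 genes did not pass, and their intervals bound the difference. For BC44 minus HC11 the 95% intervals were -0.49 to 0.40 for Fdps, -0.28 to 0.68 for Idi1, -0.27 to 0.49 for Cyp51, -0.19 to 0.40 for Srebf2 and -0.69 to 0.05 for Fdft1.

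The rest of the pathway was read from a list of 12 further enzymes, of which 11 were tested and Tm7sf2 was too low. Against BC44, 7 of 11 were higher in C57MG and 0 lower, and against HC11 6 of 11 were higher and 0 lower. Of all tested genes 34.1% were higher and 37.5% lower in C57MG than in BC44, and 33.2% higher and 37.4% lower than in HC11. The median differences were -0.495 for BC44 minus C57MG and -0.53 for HC11 minus C57MG. Without C57MG replicate 1, 7 and 4 of the 11 passed. Hsd17b7, a ketosteroid reductase of the late pathway, was at 2.73 and 4.27 RPKM in BC44, 3.70 and 5.83 in HC11, with 17.2 and 10.3 in C57MG. Its C57MG excess was the largest of the 11, with log2 differences of 1.70 and 1.34 (SE 0.28 each, limma adjusted p = 0.00097 and 0.00341). Ebp, the sterol isomerase, was at 15.3 and 18.4 RPKM in BC44, 20.4 and 19.8 in HC11, with 43.1 and 36.2 in C57MG (log2 differences 1.19 and 0.94, limma adjusted p = 6.455e-05 and 0.000258). Acat2, the thiolase at the head of the pathway, was higher in C57MG by 1.01 and 0.63. Nsdhl, which works with the demethylases, was higher by 0.76 and 0.53, and the reductase Dhcr7 by 0.495 and 0.70 (the largest of these 6 limma adjusted p-values was 0.0231). Against HC11, Nsdhl did not pass without C57MG replicate 1 (0.26, limma adjusted p = 0.138) or without either HC11 library, and against BC44 it was at 0.49 without C57MG replicate 1.

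Some steps departed from that pattern. Msmo1, the sterol C-4 methyl oxidase, was low only in BC44, at 10.9 and 12.6 RPKM against 26.6 and 26.9 in HC11, with 30.9 and 21.7 in C57MG. It was lower in BC44 than in HC11 by 1.12 (SE 0.16, limma adjusted p = 0.000997). HC11 minus C57MG was 0.05 for Msmo1 (limma adjusted p = 0.803). The mevalonate enzymes did not share the C57MG excess evenly. Mvk, mevalonate kinase, passed against HC11 (0.59, limma adjusted p = 0.0117) and not against BC44 (0.14, adjusted p = 0.455). Sc5d, the desaturase, passed against BC44 (0.45, limma adjusted p = 0.0252) and not against HC11 (0.14, adjusted p = 0.425). Pmvk, Mvd and Lbr, whose product doubles as a sterol reductase and a nuclear envelope protein, passed in neither comparison. Between BC44 and HC11, 3 of the 11 passed, against 47.7% of all tested genes: Msmo1 and Acat2 were higher in HC11, and Mvk was higher in BC44. The Acat2 and Mvk calls (limma adjusted p = 0.045 and 0.0496) lay at the threshold and were lost with most single libraries left out, Msmo1 with none. Both were also lost with a pseudocount of 0.1 and in a fit without trend. The Mvk call was lost as well when every gene was tested, with quantile or median-ratio normalization, and in a fit to the 4 libraries compared. Sc5d against BC44 was lost without C57MG replicate 1 (0.23, limma adjusted p = 0.151) and without BC44 replicate 1 or 2 (adjusted p = 0.135 and 0.0619, limma). Mvk against HC11 was lost without C57MG replicate 1 (limma adjusted p = 0.0881) or HC11 replicate 2 (adjusted p = 0.0703).

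**Figure D2:**
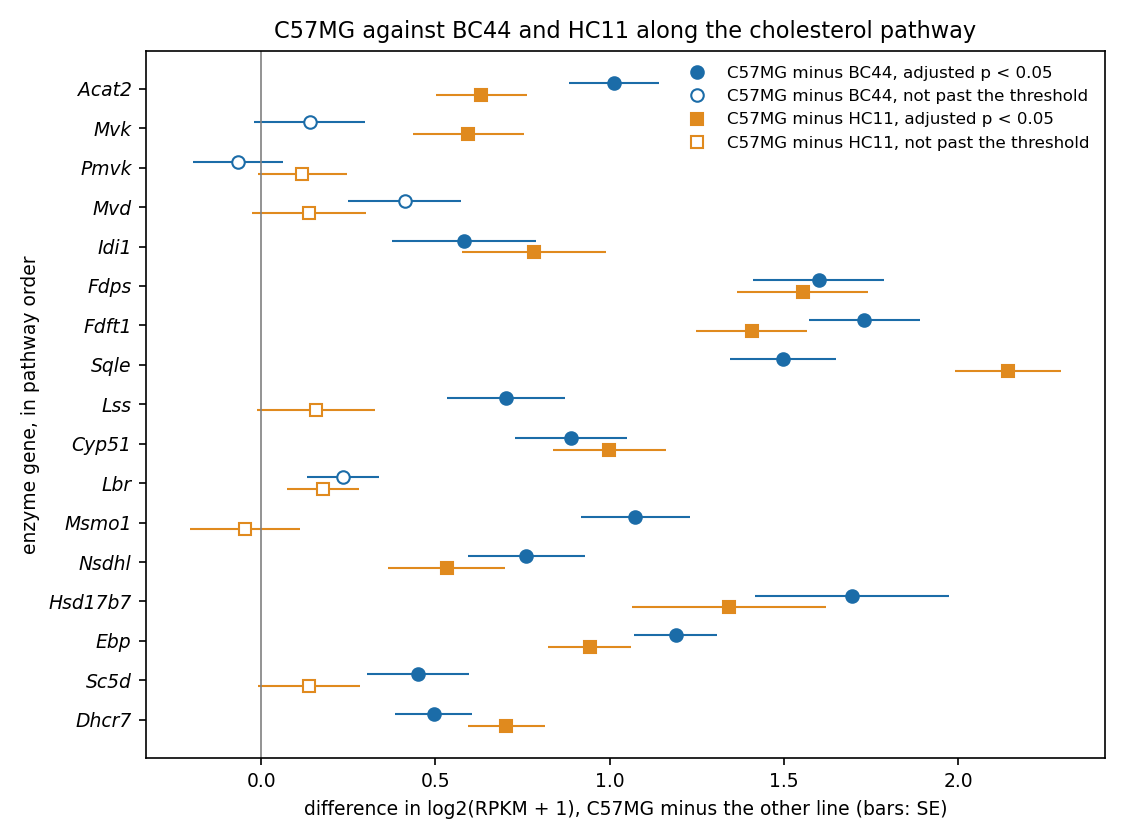
Difference in log2(RPKM + 1), C57MG minus BC44 (circles) or minus HC11 (squares), for 17 tested enzyme genes in pathway order, with bars for the limma standard error and filled symbols for adjusted p under 0.05. Filled symbols cluster from Fdps to Sqle at 1.41 to 2.14 and again at Hsd17b7 and Ebp, while Pmvk lies near 0.

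The 2 C57MG libraries themselves differed in these genes. Replicate 1 was above replicate 2 for all 6 enzymes, by 1.34 to 1.52 times, and for Srebf2 by 1.11 times. With the 11 further enzymes, 16 of 17 were higher in replicate 1, against 51.0% of all tested genes, and the exception was Lbr. A ratio of at least 1.2, a limit set after seeing the values, was reached by 14 of the 17 against 10.2% of all genes. In BC44 the order was turned, with replicate 1 above replicate 2 for 1 of 17 (Dhcr7) against 45.6% of all genes and a median ratio of 0.887. In HC11 it was 11 of 17 against 52.0%, with a median ratio of 1.06. Over all tested genes the median ratio was between 0.985 and 1.01 in the 3 lines. The levels of the pathway thus varied together between libraries of 1 line, by up to 1.66 times (Hsd17b7 in C57MG). The standard errors above pool the spread of the 3 lines, drawn toward that of genes of similar level. They can therefore be too small for comparisons with C57MG, and the adjusted p-values with them.

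**Figure D3:**
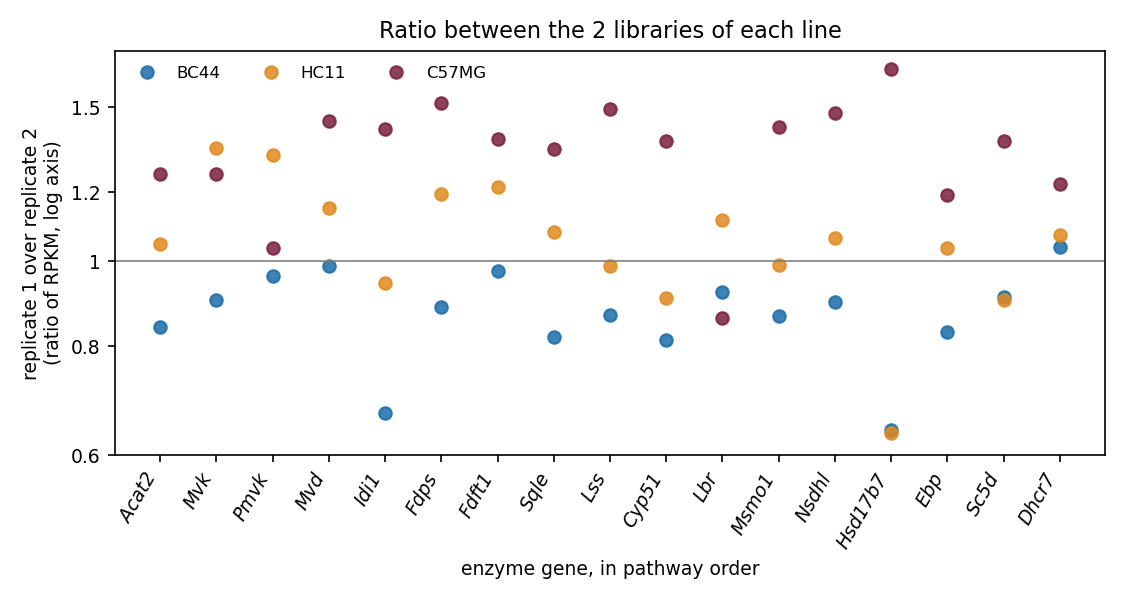
Ratio of RPKM in replicate 1 to replicate 2 (log axis) for the same 17 enzyme genes in pathway order, coloured by line. C57MG points lie above 1 for 16 genes and BC44 points below 1 for 16 genes; HC11 points fall on both sides.

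Of 10 genes that sense and transmit the sterol signal, 3 were higher and 3 lower in BC44 than in C57MG (37.5% and 34.1% of all tested genes), and 5 were higher and 4 lower in HC11 than in C57MG (37.4% and 33.2%). Insig1, which retains SCAP and is itself an SREBP target, was at 10.4 and 12.6 RPKM in BC44, 12.3 and 12.6 in HC11, with 63.2 and 42.5 in C57MG. It followed the enzymes, including the higher C57MG replicate 1, and exceeded most of them in size, at 2.09 and 1.98 on the log2 scale (SE 0.18 each, limma adjusted p = 2.829e-05 and 4.42e-05). Its relative Insig2, at 23.5 and 21.1 RPKM in BC44, 8.67 and 9.12 in HC11, with 32.3 and 36.0 in C57MG, differed among all 3 lines. HC11 was lowest, by 1.23 against BC44 and 1.83 against C57MG (SE 0.10 each, limma adjusted p = 5.425e-05 and 2.539e-06). Rnf139, a ubiquitin ligase of the endoplasmic reticulum, was higher in C57MG by 1.55 and 1.71 (limma adjusted p = 7.238e-06 and 5.069e-06). Srebf1, which encodes the related factors more tied to fatty acid synthesis, had another order. It was at 43.4 and 30.1 RPKM in HC11, above BC44 (20.5 and 17.7) by 0.89 and C57MG (19.7 and 20.8) by 0.81 (limma adjusted p = 0.00353 and 0.00301). Scap was lower in C57MG, by 0.69 and 0.59 (limma adjusted p = 0.0002 and 0.000497).

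Among 15 tested genes of cholesterol uptake, transport and storage, 9 were higher and 5 lower in C57MG than in BC44 (34.1% and 37.5% of all tested genes). Against HC11, 6 were higher and 6 lower in C57MG (33.2% and 37.4%), near those shares. Stard4, a sterol carrier named here only after its values were seen, was at 6.29 and 7.28 RPKM in BC44, 6.14 and 5.02 in HC11, with 22.9 and 18.2 in C57MG. It was higher in C57MG by 1.46 and 1.71 (limma adjusted p = 6.145e-05 and 3.065e-05). Lrp1, an endocytic receptor, was at 59.7 and 70.6 RPKM in C57MG against 7.45 to 11.5 in the other 4 libraries. Vldlr, a lipoprotein receptor, was at 5.31 to 10.5 RPKM in BC44 and HC11, and in C57MG at 0.027 in replicate 1 and listed at 0 in replicate 2. Soat1, which esterifies cholesterol for storage, was at 0.186 and 0.18 RPKM in BC44, 10.8 and 15.1 in HC11, with 8.04 and 7.20 in C57MG. Npc2, which moves cholesterol out of lysosomes, was likewise lowest in BC44, at 11.1 and 12.4 RPKM against 43.7 to 70.4 elsewhere. For Lrp1, Vldlr, Soat1 and Npc2, each comparison of the low with the high lines passed, with the largest limma adjusted p at 2.909e-05.

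**Figure D4:**
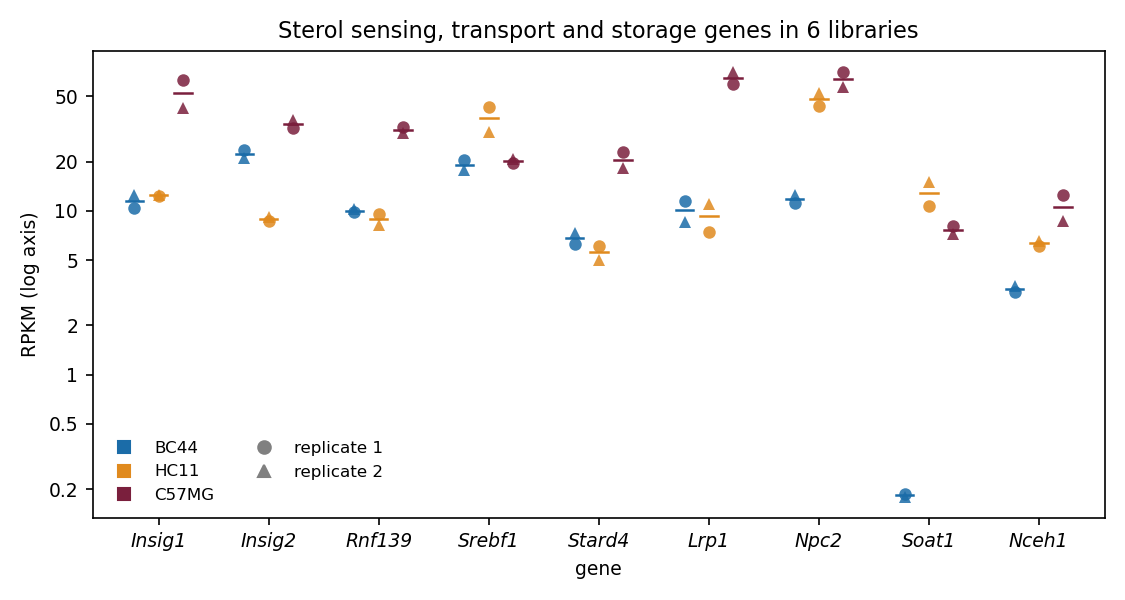
RPKM (log axis) of genes of sterol sensing, transport and storage in each library, with symbols and bars as in the plot of the 7 genes. Insig1, Rnf139, Stard4 and Lrp1 are high in C57MG only, Srebf1 is highest in HC11, and Soat1 stands at about 0.18 RPKM in BC44.

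Of 7 tested genes of oxysterol handling and efflux, 4 were higher and 2 lower in BC44 than in C57MG (37.5% and 34.1% of all tested genes), and 3 were higher and 2 lower in HC11 than in C57MG (37.4% and 33.2%). Abca1, the efflux pump induced by liver X receptors, was highest in BC44 (7.85 and 4.30 RPKM, against 1.55 and 1.02 in HC11, with 2.14 and 2.87 in C57MG). BC44 exceeded HC11 by 1.59 and C57MG by 0.98 (SE 0.25 each, limma adjusted p = 0.0016 and 0.00862), the latter with an adjusted p of 0.0582 (limma) without C57MG replicate 1 and a size of 0.61 without BC44 replicate 1. Apoe, a lipid-carrying apolipoprotein, was also highest in BC44, at 3.77 and 2.98 RPKM. Nceh1, a cholesteryl ester hydrolase, was highest in C57MG (12.5 and 8.72 RPKM) and lowest in BC44 (3.18 and 3.47), although its difference between HC11 and C57MG had an adjusted p of 0.0561 (limma) without C57MG replicate 1. Cyp7b1, an oxysterol hydroxylase, was at 11.6 and 10.5 RPKM in HC11 and 1.23 and 1.77 in BC44, and was listed at 0 in both C57MG libraries.

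Of 11 genes in the branches that leave the pathway at farnesyl diphosphate, 1 was higher and 5 lower in C57MG than in BC44 (34.1% and 37.5% of all tested genes). Against HC11, 2 were higher and 6 lower in C57MG (33.2% and 37.4%). Of the 5, Rabggta (0.40, limma adjusted p = 0.0402) did not pass in 7 of 15 alternatives, with 0.19 (adjusted p = 0.293, limma) without C57MG replicate 2. Ggps1, which lengthens farnesyl to geranylgeranyl diphosphate, was the 1 gene higher in C57MG than in BC44, at 16.7 and 14.8 RPKM against 9.56 and 9.01 (0.70, limma adjusted p = 0.00048). It was also higher than in HC11 (8.14 and 8.82 RPKM), by 0.82 (limma adjusted p = 0.000224). Rabggta and Fnta, subunits of prenyl transferases, were highest in HC11 (13.0 and 12.6 RPKM, and 64.3 and 63.9 RPKM). Icmt, which methylates prenylated proteins, was highest in BC44 (22.8 and 22.4 RPKM).

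Among 8559 other tested genes with log2 values spanning at least 0.5, those most like the mean profile of the 6 enzymes over 6 libraries were Insig1, Pmf1, Pxk, Il17ra and Hspa13 (Pearson's r 0.993, 0.992, 0.991, 0.991 and 0.989). As a description, 611 of the 8559 reached an r of 0.95, since the 6 points come from only 3 lines. For Srebf2 the 5 most alike were Jmjd8, Slc29a1, Mpg, Rxra and Ebpl, with r from 0.996 to 0.998. Within the 7 genes, r was highest for Fdps with Fdft1 (0.986) and lowest for Sqle with Lss (0.444).

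Levels of epithelial and fibroblast marker genes set C57MG apart from the other lines. Of 10 epithelial marker genes in the table, 10 reached 1 RPKM in both HC11 libraries, 6 in both BC44 libraries and only Krt14 in both C57MG libraries. Their summed level in replicates 1 and 2 was 136 and 65.5 RPKM in C57MG, 3096 and 2227 in HC11 and 4926 and 4732 in BC44. In C57MG replicates 1 and 2 Cldn3 was listed at 0, Epcam at 0.949 and 0 RPKM, and Krt5 at 16.0 and 0.148 RPKM. The BC44 sums were mostly Krt5 (2012 and 1828 RPKM) and Krt14 (2716 and 2736 RPKM). In BC44 Cldn3 and Krt18 were listed at 0, Krt7 was at 0.078 and 0.016 RPKM, and Krt8 at 0.038 and 0.064 RPKM. For 7 fibroblast markers the sum was 3039 and 2608 RPKM in C57MG, 20.1 and 59.4 in BC44 and 27.55 and 33.2 in HC11. Vim alone was at 2708 and 2282 RPKM in C57MG. Dcn was listed at 0 in C57MG and BC44. The label of an epithelial line is thus not borne out by these markers in C57MG. Their part in the differences was not tested. Depth was estimated from the steps between low values at 14280000 to 18560000 reads per library, but for HC11 and C57MG replicate 2 steps of 28640000 and 30820000 reads fitted slightly better, and the smaller numbers were taken because whole multiples fit as well. At these depths the lowest value of the 7 genes, 4.09 RPKM of Lss, would rest on about 120 reads at an assumed length of 2 kb (a counting error of 9.13%). The exons of Lss cover 10787 bases in GENCODE M21, and at that length the value would rest on more reads. Lower values of other genes, such as Soat1 in BC44 or Vldlr in C57MG, rest on fewer reads. Replicate libraries correlated at r = 0.990 to 0.996 across the 10759 genes, which are not independent replicates.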

How the data were processed

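The deposited table holds 1 RPKM value per gene and library, computed by the authors; the unit is given in its name. Per the submitters' processing notes, STAR (version not given) and build mm9 were used; the counter, gene lengths and strand setting are not given in the sources used here. All 11417 identifiers and symbols matched GENCODE M21 (GRCm38), from which positions, exonic overlaps and neighbours were taken. Genes with at least 1 RPKM in at least 2 libraries (10759) were tested as log2(RPKM + 1), which understates changes of low genes, with limma 3.58.1 in R 4.3.3 (all 6 libraries, line as factor, trend), two-sided, Benjamini-Hochberg adjustment within each contrast. The model was tested on simulated data. Depth was estimated by taking as 1 read a step chosen so that its whole multiples fitted low values. Within 0.15, these multiples fitted 71.6% to 78.0% of 230 to 349 low values per library. The tolerance alone would give 30.0% for a step not chosen on these values, which is no chance level for the chosen step. Lengths are uncertain, so depths are estimates.

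The 8 genes, the lists and the tests were chosen with earlier results of these data known, and the lists are not complete. The rule named the 8 genes, every tested enzyme of the synthesis list, the 4 genes with the largest passing difference in each other list, and the 5 genes most like the enzymes or Srebf2. Stard4, Scap, Ctsb, Akap9 and the promoter search with 1 letter different were added after values were seen. The design spoke of 7 enzymes; 6 were listed. An item of the synthesis list is not reported here and enters none of its counts. Alternatives were a pseudocount of 0.1, testing every gene or those averaging 5 RPKM or more, quantile or median-ratio normalization, 4-library fits, no trend, robust variance, the replicate number as a block, and each library left out. Python 3.11.15, numpy 2.4.6, pandas 2.3.3 and matplotlib 3.10.9 made all summaries and plots.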

Additional observations from a re-analysis of the deposited data

How the results depend on the processing

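Over all genes 5129 passed between BC44 and HC11, 7713 between BC44 and C57MG and 7590 between HC11 and C57MG, and over the 15 alternatives 3758 to 5387, 5574 to 8120 and 5476 to 7980. Against C57MG the 7 genes gave 5 to 7 calls (BC44) and 5 to 6 (HC11). In BC44 against HC11 their 2 calls ranged from 0 to 2 with a library left out. Of the 11 further enzymes, the 3 calls in BC44 against HC11 became 1 with a pseudocount of 0.1, 1 without trend and 1 to 3 with a library left out, the 7 in BC44 against C57MG became 6 to 9 over all alternatives, and the 6 in HC11 against C57MG became 4 to 7 with a library left out. Direction turned only when a library was left out, and only for differences that did not pass. In BC44 against HC11 these ranged from -0.066 to 0.47 for Idi1, -0.17 to 0.080 for Fdps, -0.036 to 0.26 for Cyp51, -0.081 to 0.29 for Srebf2, -0.0063 to 0.38 for Pmvk, -0.13 to 0.019 for Lbr, -0.24 to 0.017 for Insig1 and -0.14 to 0.38 for Lrp1. In BC44 against C57MG they ranged from -0.30 to 0.016 for Mvk and -0.18 to 0.020 for Srebf1. In HC11 against C57MG they ranged from -0.41 to 0.10 for Lss, -0.31 to 0.073 for Pmvk, -0.39 to 0.11 for Mvd, -0.20 to 0.29 for Msmo1 and -0.36 to 0.086 for Sc5d. The cause was not tested. A lone library was assumed to vary like the others.

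The replicate numbers come from the titles, and nothing ties equal numbers to a shared batch. Deviations of same-numbered libraries correlated across genes at 0.353 (BC44 and HC11), -0.040 (BC44 and C57MG) and 0.039 (HC11 and C57MG). With the replicate block 5350, 7875 and 7721 genes passed, and 2, 7 and 6 of the 7 genes, as many as without it. Of the further named genes, Mvd in BC44 against C57MG (adjusted p = 0.021, limma) and Abca1 in HC11 against C57MG (adjusted p = 0.0341, limma) passed with the block, and each also passed under several other settings.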
